A study of Saccharomyces cerevisiae with 15 samples.

Results

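The cell wall integrity pathway of budding yeast was followed through 10 genes: the wall stress sensors WSC2, WSC3, WSC4, MID2 and MTL1, the exchange factor ROM2, the kinases PKC1 and SLT2, the transcription factor RLM1 and its target PRM5. The members were named for their roles in the pathway, with earlier results of these data known. Each was matched by the array annotation to 1 of the 9335 probe sets. All 10 passed the filter on low signal, as did 6956 probe sets in all. The arrays measured total RNA of a Saccharomyces cerevisiae strain in which PMI40 was knocked out in the parent CEN.PK113-7A. PMI40 encodes phosphomannose isomerase, which joins glycolysis to the making of mannose 6-phosphate. The strain grew in aerated batches on mineral medium with 15 g/L glucose, to which 0.75, 1, 1.5, 3 or 5 g/L mannose had been added at the start, and RNA was taken 6 h after inoculation, with 3 YG_S98 arrays for each concentration. All 5 groups carry the deletion, so each comparison is between mannose concentrations and none is with the parent. Nothing in the labels tells whether a group's 3 arrays stem from separate cultures, so p-values here speak to the spread between arrays only, which may be technical. Fewer cells carrying a transcript and less of it in each cell cannot be told apart in RNA of a whole culture.

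The yeast wall is built of glucan, chitin and mannoproteins. The Wsc proteins, Mid2 and Mtl1 are single-pass plasma membrane proteins with long serine- and threonine-rich outer stretches that are heavily O-mannosylated, and they report stretching or damage of the wall. The signal passes through Rom2, which loads GTP onto the small GTPase Rho1, to protein kinase C (Pkc1), then down a MAP kinase cascade to Slt2, which phosphorylates Rlm1 and so turns on genes for wall repair. Kinase activity and sensor mannosylation are set on the protein and are not read by an RNA array.

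The PMI40 probe set gave mean signals of 258, 159, 237, 221 and 241 at 0.75, 1, 1.5, 3 and 5 g/L mannose, with a slope per doubling of mannose of 0.06 ± 0.09 log2 (SE; adjusted p = 0.648). The sources used here do not place its probes inside or outside the deleted stretch, so this signal checks nothing. Replicate arrays correlated with each other at 0.956 to 0.982 over the probe sets, and median signals ran from 20.1 to 22.1 at 0.75 g/L and from 23.3 to 27 elsewhere. The arrays fell into 4 fluidics runs, inferred from the fluidics station and an earlier or later hybridisation in the array records. Run A held the 0.75 g/L arrays and 3 g/L replicate 1, run B the other 3 g/L arrays and 5 g/L replicates 1 and 2, and run C 5 g/L replicate 3 and the 1.5 g/L arrays. Run D held the 1 g/L arrays alone, so 1 g/L and its run cannot be told apart. The fluidics record was not completed for 5 arrays, those of run A and 5 g/L replicate 2. The 3'/5' signal ratio of SPT15, a sign of RNA integrity, was 4.44, 6.1 and 6.9 at 5 g/L and 2.81 to 5.26 on the other arrays. That of ACT1 was 2.14, 1.83 and 1.49 at 5 g/L and 1.37 to 2.36 on the other arrays. Their part in the results was not tested. Signals at or below 13.5, the 95th percentile of 13 control probe sets with no yeast target, are called background.

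Over the 5 concentrations the members split. PRM5 and MID2 had an upward slope over mannose, and WSC4 and, less steeply, WSC2 a downward one. WSC2 averaged 110, 164, 150, 108 and 84.1 from 0.75 to 5 g/L, so its course was not a steady fall. The other 6 had no slope past the threshold of adjusted p = 0.05. Thus 2 of 10 members rose with mannose, where 14.3% of all tested probe sets did, and 2 fell, where 9.34% did. Since the members were chosen with earlier results of these data known, such counts are a description. Some difference among the 5 concentrations was called for 7 of 10 members, against 46.6% of all tested probe sets. With the run as a block the 1 g/L arrays, alone in run D, had to be left out of this test. It was then called for 2 members, WSC4 and PRM5, and for 1506 of 6956 probe sets in place of 3241. The drop thus mixes the block with the loss of a concentration. The median slope of the 10 was 0.04 log2 per doubling, beside 0.02 for all probe sets. PRM5, with a slope of 1.98, and WSC4, with -1.06, lay farthest from this median.

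**Figure D1:**
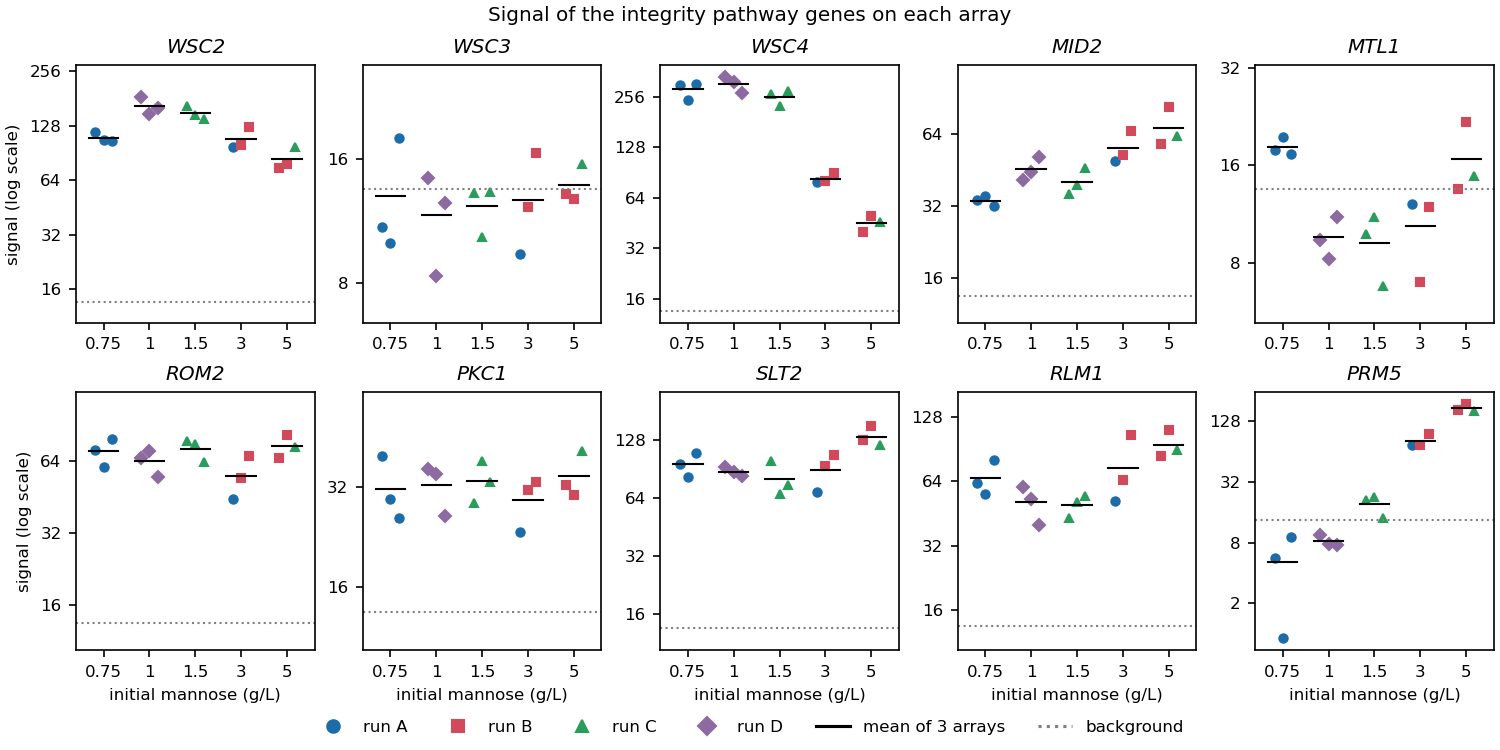
Signal of each of the 10 genes on each of the 15 arrays (vertical axis, log scale, which differs between panels) at each initial mannose concentration in g/L (horizontal axis). Points are arrays, with a symbol for each fluidics run, bars are means of 3 arrays and the dotted line is the background of 13.5. PRM5 climbs out of background to 163.9 to 190.2 at 5 g/L, and WSC4 drops to 39.9 to 49.9 there.

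WSC4 had the steepest slope of the 5 sensors. Wsc4 belongs to the Wsc family by sequence and has also been tied to the translocation of proteins into the endoplasmic reticulum. Its signal (locus YHL028W) was 299, 244.8 and 305.7 with 0.75 g/L mannose, 336.1, 311.9 and 270 with 1 g/L, 266.7, 226.3 and 277.7 with 1.5 g/L, 79, 80.4 and 90.4 with 3 g/L and 39.9, 49.9 and 45.6 with 5 g/L. The 3 groups up to 1.5 g/L overlapped, every array at 3 g/L lay below all of them, and every array at 5 g/L lay lower again. WSC4 fell by 1.06 ± 0.09 log2 per doubling of mannose (adjusted p = 7.6e-07). At 5 g/L it was 6.27-fold lower than at 0.75 g/L (log2 -2.65 ± 0.15, adjusted p = 3.27e-08). Fitting the run as a block gave a slope of -1.15 ± 0.11 (adjusted p = 4.64e-05) and -2.77 ± 0.31 for 5 against 0.75 g/L (adjusted p = 0.00115).

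Most of that difference lay between neighbouring concentrations in the upper part of the range. WSC4 averaged 83.3 ± 6.2 at 3 g/L and 257 ± 27.1 at 1.5 g/L (SD, n = 3 each), a 3.08-fold lower level (log2 -1.62 ± 0.15, adjusted p = 5.89e-05). It averaged 45.1 ± 5 at 5 g/L and 83.3 ± 6.2 at 3 g/L (log2 -0.89 ± 0.15, adjusted p = 0.0151). In the 5 against 3 g/L comparison WSC4 was the member that passed, 1 of 10, where 0.115% of all tested probe sets were lower at that threshold. When run was fitted as a block the difference of 5 against 3 g/L was -0.93 ± 0.20 (adjusted p = 0.191) and that of 3 against 1.5 g/L was -1.55 ± 0.31 (adjusted p = 0.161), in fits that called 13 and 0 of 6956 probe sets. Within run B the arrays gave 39.9 and 49.9 at 5 g/L, against 80.4 and 90.4 at 3 g/L. Run A gave 79 at 3 g/L against 244.8 to 305.7 at 0.75 g/L, and run C gave 45.6 at 5 g/L against 226.3 to 277.7 at 1.5 g/L. The 5 against 3 g/L call was lost on leaving out any 1 of 3 g/L replicates 2 and 3 and 5 g/L replicates 1 and 3.

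WSC2, one of a pair of close relatives with WSC3, had its highest signals in the middle of the range. Its signal (YNL283C) was 118.6, 107.2 and 105.6 with 0.75 g/L mannose, 184.7, 148.2 and 160.2 with 1 g/L, 165.7, 146 and 139.1 with 1.5 g/L, 97.8, 100.5 and 126.2 with 3 g/L and 75.2, 78.9 and 98.1 with 5 g/L. The arrays at 1 and 1.5 g/L were all above those of the other groups, and those at 5 g/L were all below those at 0.75 g/L. WSC2 was higher at 1 g/L than at 0.75 g/L by 0.57 ± 0.16 log2 (adjusted p = 0.012) and lower at 5 g/L than at 1.5 g/L by a log2 difference of -0.84 ± 0.16 (adjusted p = 0.00352). Its slope, -0.24 ± 0.08 per doubling, only just passed (adjusted p = 0.0458), and it passed in 13 of 27 alternative settings (with the run as a block it was -0.25 ± 0.09, adjusted p = 0.0926). The rise of 1 over 0.75 g/L was lost under median scaling and without 1 g/L replicate 1. It sets run D against run A, so concentration and run cannot be told apart. With the run as a block, and so without the 1 g/L arrays, the test for any difference gave WSC2 an adjusted p of 0.0576.

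WSC3 (YOL105C) lay around the background, between 8.3 and 18, and was above it on 4 of 15 arrays. Its slope was 0.06 ± 0.08 log2 per doubling (95% interval -0.11 to 0.23, adjusted p = 0.646), and no comparison of concentrations passed. A change in WSC3 could not be read at this signal.

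MID2, whose loss makes cells die during the response to mating pheromone, went the other way from WSC4. Its signal (YLR332W) was 33.9, 35.2 and 32 with 0.75 g/L mannose, 41.3, 44.2 and 51.3 with 1 g/L, 35.9, 39.1 and 46.3 with 1.5 g/L, 49.6, 52.3 and 66.1 with 3 g/L and 58.4, 82.8 and 62.8 with 5 g/L. Every 0.75 g/L array lay below all others, while the groups at 1 and 1.5 g/L overlapped, as did those at 3 and 5 g/L. MID2 rose by 0.32 ± 0.06 log2 per doubling (adjusted p = 0.00188). It averaged 68 ± 13 at 5 g/L and 33.7 ± 1.6 at 0.75 g/L (SD, n = 3 each), which is 2-fold (log2 1.00 ± 0.17, adjusted p = 0.000456). With the run as a block the slope was 0.32 ± 0.09 (adjusted p = 0.0333), and the difference of 5 against 0.75 g/L was 0.80 ± 0.34 (adjusted p = 0.14). Without the 5 arrays of uncompleted fluidics, which include all those at 0.75 g/L, the slope had an adjusted p of 0.0552.

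MTL1 encodes a sensor related to Mid2. Its signal (YGR023W) was 17.9, 19.5 and 17.3 with 0.75 g/L mannose, 9.4, 8.2 and 11.1 with 1 g/L, 9.8, 11.1 and 6.8 with 1.5 g/L, 12.2, 7 and 11.9 with 3 g/L and 13.5, 21.7 and 14.8 with 5 g/L. The arrays at 1, 1.5 and 3 g/L were all in the background, the 0.75 g/L arrays were above it, and 2 of the 5 g/L arrays were. MTL1 was therefore at least 1.35-fold lower at 1 g/L than at 0.75 g/L (adjusted p = 0.00939). This sets run D against run A, so concentration and run cannot be told apart. Some difference among the concentrations was called for MTL1 (adjusted p = 0.00827). That call was lost with the run as a block, without the arrays of uncompleted fluidics and with signals floored at the background. A slope did not describe it (0.02 ± 0.13 log2 per doubling, adjusted p = 0.937).

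ROM2 and PKC1, the steps between the sensors and the kinase cascade, had no comparison that passed. ROM2 (YLR371W) lay between 44.2 and 82.5 on the 15 arrays, with a slope of -0.01 log2 per doubling (95% interval -0.16 to 0.14, adjusted p = 0.935). PKC1 (YBL105C) lay between 23.5 and 40.9, with a slope of 0.01 (95% interval -0.13 to 0.16, adjusted p = 0.912). For 5 against 0.75 g/L the intervals ran from -0.31 to 0.47 for ROM2 and from -0.32 to 0.59 for PKC1, so changes within these bounds are not shown to be absent.

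SLT2, the MAP kinase of the pathway, was highest at 5 g/L. Its signal (YHR030C) was 96.2, 82.1 and 109.2 with 0.75 g/L mannose, 92.6, 86.9 and 83.1 with 1 g/L, 99.4, 66.5 and 74.3 with 1.5 g/L, 68.6, 93.1 and 107.1 with 3 g/L and 127.2, 150 and 119.8 with 5 g/L. All 5 g/L arrays were above every other array, and the 4 lower concentrations overlapped. The slope was 0.15 ± 0.08 log2 per doubling (adjusted p = 0.167), and 5 against 0.75 g/L gave 0.47 ± 0.20 (adjusted p = 0.0803). With the run as a block the difference of 5 against 0.75 g/L was 0 ± 0.36 (adjusted p = 0.996). Against 1.5 g/L the 5 g/L arrays were higher by 0.74 ± 0.20 (adjusted p = 0.0245). Some difference among the concentrations was called (adjusted p = 0.0464), in 8 of 25 alternative settings too.

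RLM1, the MADS-box transcription factor that Slt2 phosphorylates, had a similar course. Its signal (YPL089C) was 62.9, 55.8 and 80.5 with 0.75 g/L mannose, 60.2, 53 and 40.1 with 1 g/L, 43.1, 51.2 and 54.3 with 1.5 g/L, 51.9, 65.2 and 105 with 3 g/L and 83.8, 111.1 and 89.4 with 5 g/L. Every 5 g/L array lay above all arrays at 0.75, 1 and 1.5 g/L, and the 3 g/L arrays spread over both. The slope was 0.25 ± 0.09 log2 per doubling (adjusted p = 0.063). For 5 against 0.75 g/L the difference was 0.52 ± 0.25 (adjusted p = 0.12), and with the run as a block it was -0.12 ± 0.42 (adjusted p = 0.877). At 5 g/L RLM1 was higher than at 1.5 g/L by 0.93 ± 0.25 (adjusted p = 0.0243) and higher than at 1 g/L by 0.90 ± 0.25 (adjusted p = 0.017).

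PRM5, a membrane protein gene that responds to pheromone and is a standard readout of Rlm1, had the steepest slope of the 10. Its signal (YIL117C) was 5.6, 0.9 and 9.1 with 0.75 g/L mannose, 9.6, 7.7 and 7.6 with 1 g/L, 21.1, 22.7 and 14 with 1.5 g/L, 75, 75.5 and 96 with 3 g/L and 166.3, 190.2 and 163.9 with 5 g/L. Every array at 0.75 and 1 g/L was in the background, and from 1 g/L upwards no group overlapped the next. PRM5 rose by 1.98 ± 0.14 log2 per doubling (adjusted p = 9.82e-08), a slope that was 1.21 with signals floored at the background. It was at least 12.8-fold higher at 5 g/L than at 0.75 g/L (adjusted p = 8.22e-07) and at least 6.05-fold higher at 3 g/L than at 0.75 g/L (adjusted p = 5.47e-06). Fitting the run as a block gave PRM5 a slope of 1.91 ± 0.24 (adjusted p = 0.000684) and an adjusted p of 0.00931 for 5 against 0.75 g/L.

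At 3 g/L PRM5 averaged 82.2 ± 12, against 19.3 ± 4.6 at 1.5 g/L (SD, n = 3 each), 4.33-fold higher (log2 2.11 ± 0.46, adjusted p = 0.0213). At 5 g/L it averaged 173 ± 14.5, against 82.2 ± 12 at 3 g/L, a log2 difference of 1.08 that did not pass (adjusted p = 0.487) although the arrays did not overlap. The SE of 0.46, pooled over the 5 groups, took in the scatter of background signals (0.9 to 9.1) at 0.75 g/L. Run A gave 75 at 3 g/L against 0.9 to 9.1, within background, at 0.75 g/L, and the log2 difference was 1.06 in run B (5 against 3 g/L) and 3.12 in run C (5 against 1.5 g/L). With the run as a block the difference of 3 against 1.5 g/L was 2.06 ± 1.01 (adjusted p = 0.637), in a fit that called 0 of 6956 probe sets. The call was also lost on leaving out any 1 of the 3 g/L arrays or 1.5 g/L replicate 1 or 3.

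**Figure D2:**
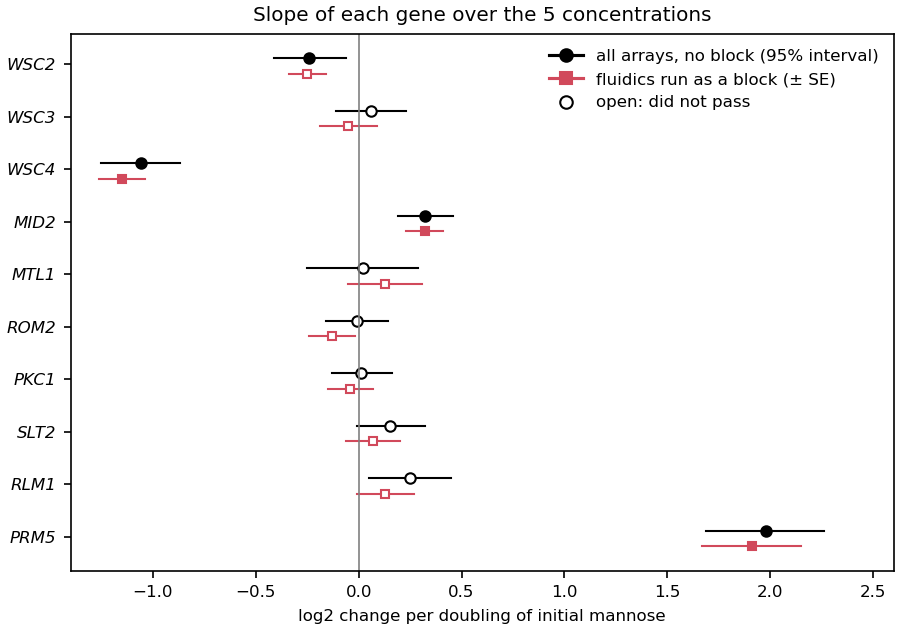
Slope of each of the 10 genes in log2 change per doubling of initial mannose (horizontal axis). Circles are slopes over all 15 arrays with 95% intervals, squares are slopes with the fluidics run as a block with ± 1 SE, and filled symbols passed adjusted p = 0.05. PRM5 at 1.98 and WSC4 at -1.06 lie far from the other 8, whose slopes run from -0.24 to 0.32.

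Set against 0.75 g/L, where all 3 arrays came from run A, PRM5 and MID2 were higher at 5 g/L, 2 of 10 members where 22.2% of probe sets were, and WSC4 was lower, 1 of 10 where 13.3% were. SLT2, RLM1 and WSC2 had arrays that did not overlap between these groups without passing, so that 6 of 10 members did not overlap, where 51.1% of all probe sets did not. In 1 against 0.75 g/L, 1 member was higher, WSC2 (22.1% of all probe sets), and 1 lower, MTL1 (15.3%). In 1.5 against 1 g/L 0 of 10 members passed in limma, where 0.403% of probe sets did, and 1 member, PRM5, had an unadjusted p under 0.05. In 3 against 1.5 g/L, PRM5 was higher (2.56% of all probe sets) and WSC4 lower (1.54%).

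The comparisons of 5 g/L with 1.5 and 1 g/L were added after the signals were seen, since several members had their lowest signals there. Both share the 5 g/L arrays and are not independent, and since these members led to the choice, their counts are a description and nothing is read from them against the share of all probe sets. In 5 against 1.5 g/L, 5 of 10 members were higher, MID2, MTL1, SLT2, RLM1 and PRM5, where 8.22% of all probe sets were, and WSC2 and WSC4 were lower, where 4.89% were. In 5 against 1 g/L, 13.5% of all probe sets were higher and 10.4% lower, and 5 members were higher and 2 lower. The differences of 5 against 1 g/L were 0.57 ± 0.17 for MID2 (adjusted p = 0.0296), 0.59 ± 0.20 for SLT2 (adjusted p = 0.0429, held in 10 of 24 alternative settings) and -0.97 ± 0.16 for WSC2 (adjusted p = 0.000594). MTL1 was at least 1.21-fold higher at 5 than at 1.5 g/L (adjusted p = 0.0404), a call that held in 10 of 24 alternative settings. With the run as a block, WSC4 was the member still called in 5 against 1.5 g/L (adjusted p = 0.000978), in a fit that called 222 of 6956 probe sets in place of 912, and PRM5 had an adjusted p of 0.0571. Leaving out 5 g/L replicate 2, or all 5 arrays of uncompleted fluidics, left 3 members called in each of these comparisons.

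When the 5 concentrations were put in order of level for each gene, 4 of the 40 pairs of neighbours differed past the threshold. These were WSC2 at 1.5 over 0.75 g/L, WSC4 at 1.5 over 3 g/L and at 3 over 5 g/L, and PRM5 at 3 over 1.5 g/L. The other neighbours did not differ past the threshold.

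The rest of the pathway was read from 4 lists. They too were chosen with earlier results of these data known, so their counts are a description. Of all tested probe sets, 14.3% rose with mannose and 9.34% fell. Of 15 genes of the pathway's upstream part and core, 1 rose with mannose and 0 fell (3 at an unadjusted p under 0.05, limma), with a median slope of -0.02 log2 per doubling. That gene was SKN7, a transcription factor of the wall and oxidative stress responses, with a slope of 0.38 ± 0.10 (adjusted p = 0.0133). It averaged 35.5, 76.4, 69.1, 85.6 and 92 from 0.75 to 5 g/L, with a step of 1.13 ± 0.21 log2 at 1 over 0.75 g/L (adjusted p = 0.000676), where concentration and run cannot be told apart. Its difference of 5 against 1 g/L was 0.26 (adjusted p = 0.41). The GTPase gene RHO1 had a slope of -0.14 ± 0.05 (adjusted p = 0.0616). The slope of ROM1, the exchange factor related to ROM2, was -0.37 ± 0.15 (adjusted p = 0.0863). BAG7, a GTPase-activating protein for Rho1, averaged 20.3, 0.8, 2, 13.7 and 38.6 at 0.75, 1, 1.5, 3 and 5 g/L, with both ends above background and 1 and 1.5 g/L within it, and no single slope passed (0.94 ± 0.40, adjusted p = 0.0957). SLG1, the sensor gene also called WSC1, was looked at after its values were seen and had a slope of -0.13 ± 0.06 (adjusted p = 0.108). After median scaling 4 genes of this list fell and 1 rose.

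Of 10 phosphatases and modulators, 1 rose, where 14.3% of all tested probe sets did, and 0 fell (0 at an unadjusted p under 0.05), where 9.34% did. The median slope was 0.04. The gene that rose was PPZ1, a phosphatase gene of salt tolerance and wall integrity, at 0.21 ± 0.06 log2 per doubling (adjusted p = 0.0176). MSG5 and SDP1, phosphatases that act on Slt2, had slopes of 0.15 ± 0.08 (adjusted p = 0.175) and -0.25 ± 0.16 (adjusted p = 0.282). ZEO1, whose product binds Mid2, had a slope of -0.17 ± 0.09 (adjusted p = 0.17). After either quantile normalization or median scaling 0 of these genes rose.

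Of 17 known wall stress targets other than PRM5, 2 rose, where 14.3% of all tested probe sets did, and 5 fell, where 9.34% did. The other 10 did not pass, and the median slope was -0.03. CWP1, a mannoprotein of the wall, averaged 230 ± 29 at 5 g/L, against 1120 ± 90.1 at 0.75 g/L, and fell by 0.93 ± 0.10 log2 per doubling (adjusted p = 5.36e-06). PIR1, a wall protein bound to glucan, fell by 0.28 ± 0.05 (adjusted p = 0.00173), and YNL058C fell by 0.36 ± 0.06 (adjusted p = 0.000332). YPS3, a surface aspartic protease, rose by 0.41 ± 0.08 (adjusted p = 0.00146). The wall stress targets thus went in both directions while PRM5 rose, and with the run as a block 3 rose and 2 fell.

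PRM5 is also induced by mating pheromone, and 15 of 19 listed genes with that property were tested, PRM3, PRM6, PRM9 and FIG1 having fallen below the filter. Of the 15, 10 rose with mannose, where 14.3% of all probe sets did, 0 fell (0 at an unadjusted p under 0.05), where 9.34% did, and the median slope was 0.48 log2 per doubling, beside 0.02 for all probe sets. In 5 against 0.75 g/L, 9 were higher (22.2% of all probe sets) and 1 lower (13.3%), PRM8 at log2 -0.68 ± 0.17 (adjusted p = 0.00549). In 1 against 0.75 g/L, which sets run D against run A, 3 were higher (22.1%). In that comparison 3 were lower (15.3%), FUS3, PRM8 and ASG7. AGA1, the anchor of the mating agglutinin, averaged 302 ± 51 at 5 g/L and 30 ± 3.9 at 0.75 g/L, with a slope of 1.24 ± 0.07 (adjusted p = 9.1e-09). PRM1, needed for membrane fusion of mating cells, averaged 82 ± 7.5 at 5 g/L and 8.6 ± 1.3, within background, at 0.75 g/L (slope 1.19 ± 0.07, adjusted p = 1.28e-08). FUS1, another cell fusion gene, and PRM4 had slopes of 0.86 ± 0.08 (adjusted p = 9.6e-07) and 1.04 ± 0.09 (adjusted p = 1.12e-06). FUS1 lay within background at 0.75, 1 and 1.5 g/L and PRM4 at 0.75 and 1 g/L, so the size of these slopes is not resolved. With the run as a block 8 of the 15 rose and 0 fell, and after median scaling 9 rose and 0 fell. PRM5 and MID2 rose as the 10 genes of this list did, and whether the changes are tied was not tested.

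**Figure D3:**
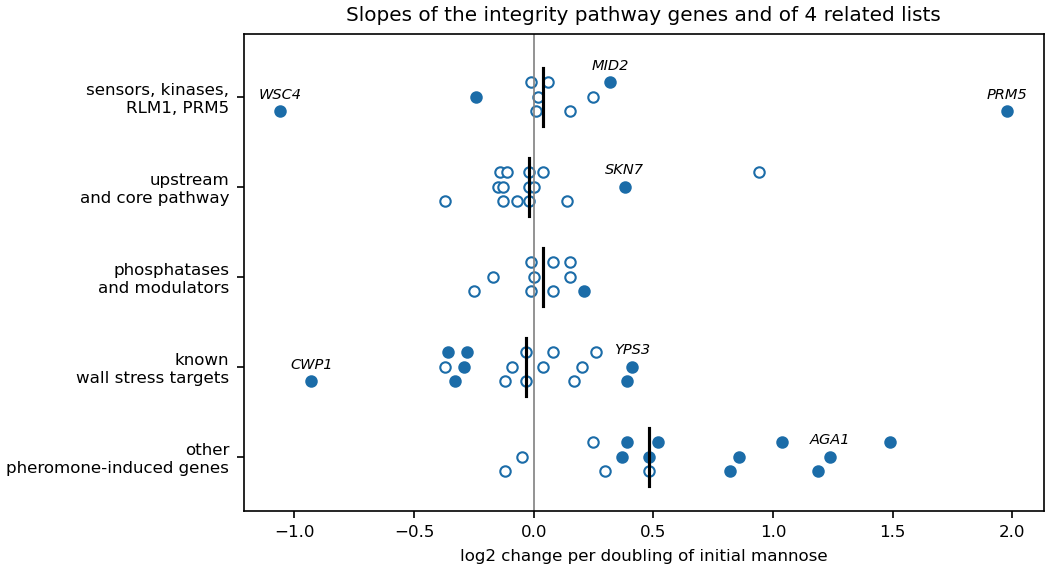
Slopes in log2 change per doubling of initial mannose (horizontal axis) for the 10 genes and for the tested genes of 4 related lists (rows). Filled points passed adjusted p = 0.05, open points did not, and black bars are medians. The pheromone-induced genes have a median of 0.48, and the other rows have medians between -0.03 and 0.04.

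Profiles most like those of the 2 members with the largest slopes were sought among 5699 probe sets with 1 symbol, as the root mean square difference of log2 signals over the 15 arrays after each was centred on its own mean. For PRM5 the nearest were YOR338W (0.64), NCA3 (0.64), DIP5 (0.69), SNO1 (0.77) and YAT1 (0.79), where the median of all was 2.08. PRM5 lay in background at 0.75 and 1 g/L, so these distances rest in part on unresolved signals. YOR338W averaged 4.5, 4.2 and 8.7 at 0.75, 1 and 1.5 g/L, also within background. NCA3 averaged 34.7, 29.9, 109.9, 590.8 and 1037.7 over the concentrations from 0.75 to 5 g/L. DIP5, an amino acid permease gene, averaged 15.1, 16.5, 45.6, 243.3 and 227.2. For WSC4 the nearest were CLB1 (0.32), CWP1 (0.42), CAT5 (0.53), YER158C (0.53) and COA4 (0.57), where the median of all was 1.19. CLB1, a mitotic cyclin gene, averaged 79.3, 102.6, 101.3, 32.4 and 22.8, with its large step between 1.5 and 3 g/L as in WSC4.

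**Figure D4:**
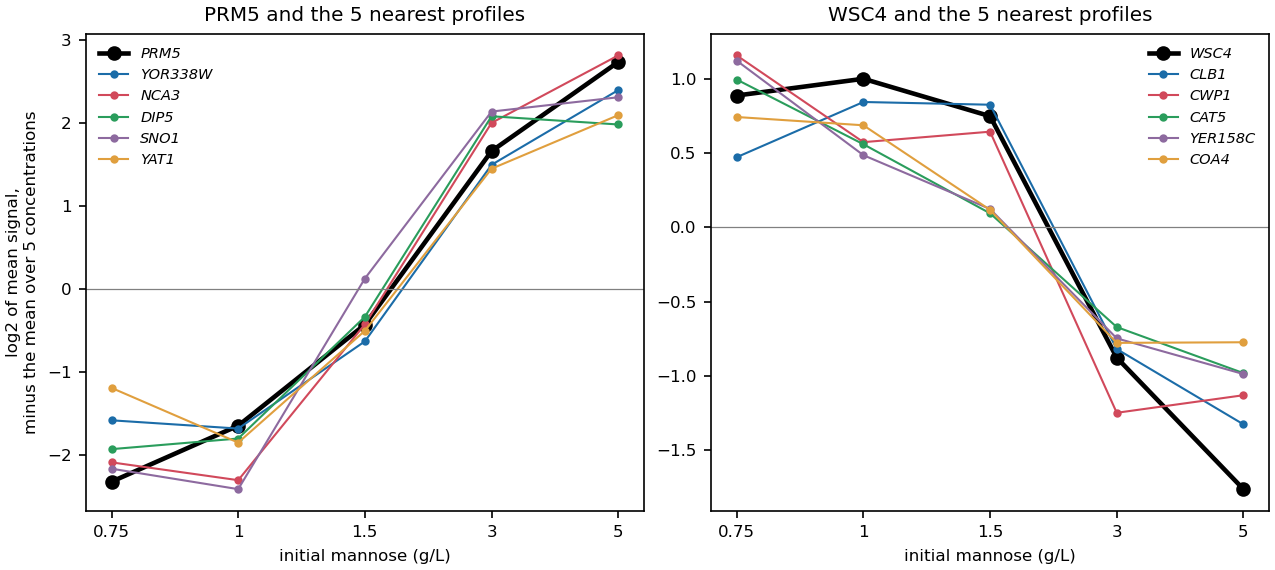
Log2 of the mean signal of each gene at the 5 initial mannose concentrations, minus its mean over them (vertical axis), for PRM5 (left) and WSC4 (right) in black with the 5 nearest profiles of each in colour. PRM5 signals at 0.75 and 1 g/L lie within background, so their height there is not resolved. The genes beside WSC4 all drop between 1.5 and 3 g/L.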

How the data were processed

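The authors deposited linear signal intensity for 9335 probe sets on 15 YG_S98 arrays; the method that turned probes into signals is not stated in the sources. Other deposited records, of fluidics stations and hybridisation, served only to infer runs and to mark arrays of uncompleted fluidics. Signals had 2% trimmed means of 100.09 to 100.13 and were not rescaled. Signals below 1.5 (the 10th percentile) were set to it and log2 transformed, 60 control probe sets were removed, and a filter on mean signal at the 25th percentile left 6956. Tests were made with limma 3.58.1 (lmFit and eBayes, R 4.3.3), fitted to the 15 arrays together, and p-values were adjusted by Benjamini-Hochberg over the 6956. The slope was fitted on log2 of the mannose concentration. The code was tested on simulated data. Where every array of a group lay in background, a fold is a bound against the background level.

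The members and lists were chosen with earlier results of these data known. Named genes were the 10 members, PMI40, up to 4 genes of each list with the smallest trend p, and the 5 nearest profiles of PRM5 and WSC4. SLG1, FUS3, PRM8, ASG7 and the genes of the closing section were added after values were seen. The alternatives changed scaling, floor, filter, variance model, blocks and arrays left out. A parent strain was not analysed here.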

Additional observations from a re-analysis of the deposited data

How the results depend on the processing

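No called member changed direction under any of the 28 settings: of 2212 member values under alternatives, 2074 kept their side of the threshold, 124 lost the call and 14 gained one. Members called in 1 against 0.75 g/L were 1 under median scaling and 1 with a filter at the 40th percentile, in place of 2. That filter removed MTL1 from the test, so its call there was not lost on its values. In 5 against 3 g/L they were 2 with a floor at the 20th percentile and 2 with a floor at background (chosen after seeing the data), in place of 1. The floor at background, in a fit of 9275 probe sets without the filter on mean signal, left 4 of 7 for any difference. SLT2 and RLM1, with every array above background, also lost this call when only the filter was removed. With the fluidics run as a block, 2 were called for any difference, 0 in 3 against 1.5 g/L, 0 in 5 against 3 g/L and 1 in 5 against 1.5 g/L, where 1506, 0, 13 and 222 of all 6956 probe sets were, so the counts of 0 say nothing about the members. The 1 g/L arrays were left out of these block fits, so the test for any difference covered the other concentrations only. The 5 arrays of uncompleted fluidics include all those at 0.75 g/L. Without them, 3 members were called for any difference among the remaining concentrations, where 887 of 6956 probe sets were. Members called were 0 in 5 against 3 g/L, 3 in 5 against 1.5 g/L and 3 in 5 against 1 g/L (10, 663 and 1430 of all probe sets). Leaving out 1 array at a time gave 3 to 5 members in the trend, 5 to 7 for any difference, 3 to 4 in 5 against 0.75 g/L, 1 to 3 in 1 against 0.75 g/L, 0 to 1 in 1.5 against 1 g/L, 1 to 2 in 3 against 1.5 g/L, 0 to 1 in 5 against 3 g/L, 3 to 7 in both 5 against 1.5 and 5 against 1 g/L, and 1 to 4 neighbour pairs in the order of levels. The cause was not tested. Of 30 correlations between same-numbered arrays 4 exceeded 0.1 (range -0.24 to 0.22), which does not settle whether the numbers pair arrays. With the replicate block 3 members were called in the trend in place of 4. Of the probe sets called in the trend, 60.5% were higher as deposited, 46.6% after quantile normalization and 34.1% after median scaling; the median of all probe sets in 5 against 0.75 g/L moved by -0.14 and -0.27 log2 under these. No run block could be fitted for comparisons with 1 g/L, and none without the uncompleted arrays for those with 0.75 g/L. WSC3 and MTL1 are limited by background.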

Other observations

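Several genes of the related lists differed between 1 and 0.75 g/L, and were picked after their values were seen. PIR3, a wall protein gene, had 79.5 to 97.4 at 1 g/L and 396.3 to 484.6 at 0.75 g/L (log2 -2.27 ± 0.18, adjusted p = 3.82e-07). SDP1, a stress-induced phosphatase gene, had 18.4 to 25.6 at 1 g/L and 67 to 79.8 at 0.75 g/L (log2 -1.66 ± 0.19, adjusted p = 1.04e-05). ROM1 had 23.6 to 32.6 at 1 g/L and 68.1 to 85.2 at 0.75 g/L (log2 -1.54 ± 0.17, adjusted p = 8.71e-06). PST1, a wall protein gene induced by wall damage, had 165.1 to 259.9 at 1 g/L and 349.9 to 480.1 at 0.75 g/L (log2 -0.98 ± 0.20, adjusted p = 0.00151). In the other direction, BCK1, the first kinase of the MAP kinase cascade, had 39.4 to 59 at 1 g/L and 18.3 to 27.9 at 0.75 g/L (log2 0.99 ± 0.29, adjusted p = 0.0145). All 0.75 g/L arrays came from run A and all 1 g/L arrays from run D, so concentration and run cannot be told apart here.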
